A study of Mus musculus with 12 samples.

Results

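The 41 genes described here encode the 19 Wnt ligands, the 10 Frizzled receptors, the co-receptors Lrp5 and Lrp6, 9 secreted inhibitors (Sfrp1, Sfrp2, Sfrp4, Sfrp5, Frzb, Dkk1, Dkk2, Dkk3 and Wif1) and Axin2, and they were chosen by mouse gene symbol, matched to Ensembl gene identifiers. All 41 are among the 37991 genes counted, and 31 of them passed the filter on low counts, against 15327 genes in all. Primary mouse embryonic fibroblasts (MEFs), grown out of embryos at day 13.5 and used at passage 3, were profiled by RNA sequencing of polyadenylated RNA. All 12 samples are of the FVB strain, and the design holds 4 groups of 3 samples. Wild-type MEFs were left untreated or given neocarzinostatin (NCS, a radiomimetic drug that breaks DNA) at 250 ng/ml for 3 h, and MEFs homozygous for the 3KR allele of E2f1 (E2f1 3KR/3KR, 3KR MEFs), in which the lysines acetylated after DNA damage are replaced by arginine, were left untreated or given the same treatment. The 3KR allele is in every cell from the germ line, in a single mutant line bred in house, while wild-type FVB mice were purchased. Whether the wild-type MEFs came from these or from siblings of the mutants is not given in the sources used here.

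Wnt proteins are lipid-modified secreted ligands that bind a Frizzled receptor together with Lrp5 or Lrp6 and stabilise beta-catenin, or signal through Frizzleds and other receptors to the cytoskeleton without it. Secreted frizzled-related proteins (the Sfrp family and Frzb) and Wif1 bind the ligands, Dickkopf proteins such as Dkk1 and Dkk2 bind the LRP co-receptors, and Axin2 is a scaffold of the beta-catenin destruction complex that is itself a common target of the pathway. In embryonic mesenchyme, from which MEFs are grown, these genes are known for their regional expression and for their part in limb, skeletal and skin development.

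The counted reads came to 33203757 in the shallowest and 45279321 in the deepest sample, so that 3 counts correspond to 0.0663 to 0.0904 CPM (counts scaled to a common library total). The untreated and treated samples of wild-type replicate 3 stood apart from the other wild-type samples, and their chi-square over genes, divided by the number of genes, was 7.59 to 9.40. All other pairs of replicates gave 2.03 to 2.33. Xist, the RNA of the inactive X, lay at 42.6 to 48.9 normalized counts in untreated wild-type and 30590.1 to 30649 in untreated 3KR MEFs. The Y-linked Ddx3y lay at 5370.3 to 5655 and 10.9 to 11.4, so that sex and genotype cannot be told apart. E2f1, which the 3KR allele alters in its codons, lay at 1042 to 1296 normalized counts in untreated wild-type and 1111 to 1128 in untreated 3KR MEFs, a level that does not check the genotype labels. The p53 target Cdkn1a had log2 responses to NCS of 1.18 in wild-type and 1.34 in 3KR MEFs. Fibroblast markers summed to 29644 to 30639 TPM (transcript counts per length, scaled to a common total) in untreated wild-type and 35095 to 36062 in untreated 3KR MEFs. Other cell type markers moved with the genotype as well. In untreated cells, 9 of 12 Schwann cell and neural crest markers were lower in 3KR MEFs (median log2 fold change -2.01, summed level 308 to 312 TPM in wild-type against 74.4 to 78.4 TPM in 3KR). All 16 macrophage markers were higher (median 1.02, 342 to 403 against 654 to 668 TPM), as were 15 of 15 regional transcription factors (median 1.99, 85.9 to 89.0 against 274 to 278 TPM). Of the lists with few tested genes, 2 of 2 muscle precursor markers were lower, and 3 of 3 osteoblast markers higher. Further, 2 of 3 epithelial markers were higher and 1 lower, 1 of 4 endothelial markers was lower, and 3 of 8 chondrocyte markers were higher and 1 lower. Of 12 fibroblast markers, 10 were higher and 2 lower. For all tested genes, 22.1% were higher and 23.6% lower in untreated 3KR MEFs. The marker lists were chosen with earlier results of these data known, so their counts are a description and not a test. No marker of the fibroblast, Schwann cell, macrophage or regional lists was at 0 in all samples of a group. The part of these markers in the results given here was not tested. Fewer cells of a type and less RNA per cell cannot be told apart in bulk samples.

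Per length, a single ligand led in every group. Wnt5a, which mostly signals without beta-catenin, lay at 58.8 to 64.0 TPM in untreated wild-type and 50.5 to 50.8 TPM in untreated 3KR MEFs, and took 37.4% and 35.0% of the summed level of all ligands. Wnt2, a ligand of the beta-catenin branch, was second in untreated wild-type MEFs at 39.8 to 48.4 TPM, and Wnt11 followed at 11.7 to 12.9 TPM. In untreated 3KR MEFs the second place was held by Wnt4 at 16.1 to 19.4 TPM and Wnt2 at 15.1 to 17.2 TPM, whose ranges overlapped. Below them, Wnt10a, Wnt16, Wnt11, Wnt9a and Wnt5b lay between 8.30 and 13.6 TPM in untreated 3KR MEFs, with each of the first 4 overlapping its neighbour in that order.

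Among the receptors, Fzd1, Fzd7 and Fzd2 together made up most of the Frizzled level in every group. In untreated wild-type MEFs they stood in that order without overlap, at 154 to 162, 132 to 142 and 88.6 to 94.0 TPM. In untreated 3KR MEFs the levels of Fzd2 (135 to 137 TPM) and Fzd1 (134 to 139 TPM) overlapped and both lay above Fzd7 (106 to 110.3 TPM). Lrp6 lay above Lrp5 in all groups, at 33.5 to 38.2 against 25.0 to 27.5 TPM in untreated wild-type and 45.4 to 45.8 against 31.9 to 33.7 TPM in untreated 3KR MEFs. Of the inhibitors, Dkk3, a divergent Dickkopf protein, was the most abundant in every group, at 215 to 228 TPM in untreated wild-type and 244 to 253 TPM in untreated 3KR MEFs, and Sfrp1 followed at 76.8 to 78.6 and 169 to 176 TPM. Sfrp4 was the third inhibitor in untreated wild-type MEFs (26.2 to 27.6 TPM) and Sfrp2 the fifth (8.76 to 9.48 TPM), whereas in untreated 3KR MEFs Sfrp2 was the third (73.1 to 78.3 TPM) and Sfrp4 the fifth (9.04 to 9.19 TPM).

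**Figure D1:**
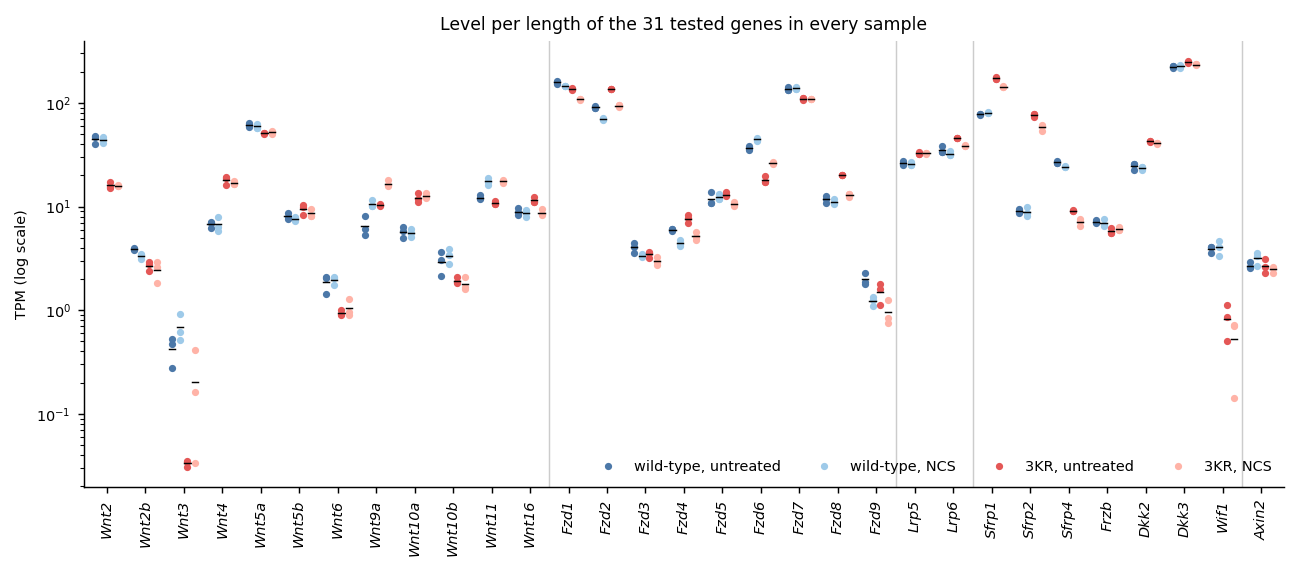
Level per length (TPM, log axis) of the 31 tested genes, ordered by role with vertical lines between ligands, Frizzled receptors, LRP co-receptors, inhibitors and Axin2, with 1 point per sample and a dash for the mean of the 3 samples of a group. The genes span levels from under 0.1 TPM (Wnt3 in untreated 3KR MEFs) to over 200 TPM (Dkk3), and Wnt2, Wnt4, Fzd6, Sfrp1, Sfrp2 and Sfrp4 show separate clusters of points for the genotypes.

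The first comparison asked how these genes differed between the genotypes without damage. In untreated 3KR MEFs 13 of the 31 tested genes were higher and 14 were lower than in wild-type MEFs by the quasi-likelihood test of edgeR at a false discovery rate (FDR) of 0.05 over all genes tested. These are 41.9% and 45.2% of them against 22.1% and 23.6% of all tested genes. Without wild-type replicate 3 in both treatments the counts were 14 and 13. The Frizzled-binding inhibitor Sfrp2 had the largest increase. Wif1 had the largest decrease apart from Wnt3, which was close to the limit of detection in 3KR MEFs. Wif1 was itself low there, at 13 to 25 raw counts untreated and 3 to 17 after NCS, with 5 of 6 3KR samples over the level of the filter. The median log2 fold change over the 31 genes was -0.03. After NCS 11 were higher and 13 lower (35.5% and 41.9%, against 22.9% and 23.6% of all tested genes), and without wild-type replicate 3 the counts were 11 and 12. The genes called are not replicates of each other, since each was read from the same 12 samples. Nothing in the labels says that the replicates are separate cultures or embryos, so the p-values measure the spread between these samples, which may be technical.

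**Figure D2:**
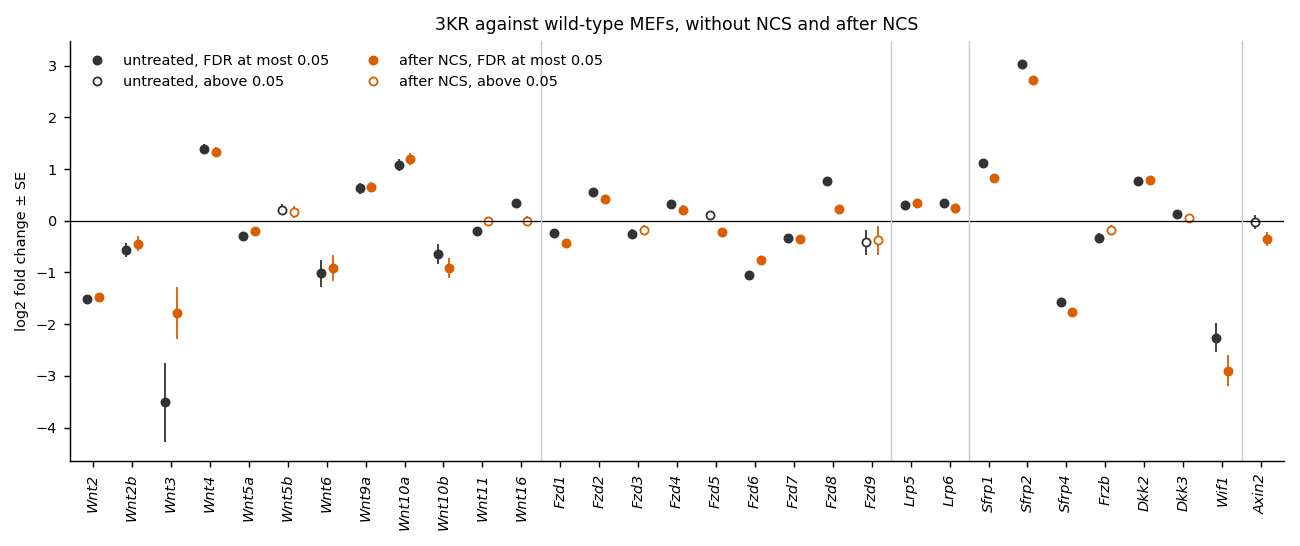
Log2 fold change between the genotypes (3KR over wild-type MEFs) for the 31 tested genes (points, ± SE from the edgeR fit), untreated in black and after NCS in orange, with filled points for an FDR of at most 0.05 and open points above it, and vertical lines between roles. Sfrp2 stands highest at 3.04 untreated and 2.72 after NCS, and most genes have their points of both comparisons on the same side of 0.

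Of the 12 tested ligands, 4 were higher (Wnt4, Wnt9a, Wnt10a and Wnt16) and 7 lower (Wnt2, Wnt2b, Wnt3, Wnt5a, Wnt6, Wnt10b and Wnt11) in untreated 3KR MEFs, and Wnt5b did not pass the test. The untreated shares are 33.3% and 58.3%, against 22.1% and 23.6% of all tested genes. After NCS 3 were higher (Wnt4, Wnt9a and Wnt10a) and 6 lower. The 3 higher are 25.0% of the 12, close to the 22.9% of all tested genes. The 6 lower of 12 stand against 23.6% of all tested genes. Wnt2 was counted at 1059.6, 1018 and 864 in untreated wild-type MEFs, 1058, 1035 and 926 in wild-type MEFs after NCS, 326, 337 and 371 in untreated 3KR MEFs and 357, 357 and 365 in 3KR MEFs after NCS (normalized counts, the unit of all counts given from here on unless stated). All 6 wild-type samples lay above all 6 3KR samples, by more than the spread within any group. Relative to wild-type, the log2 fold change in 3KR MEFs was -1.51 ± 0.08 SE, FDR 9.35e-14 untreated and -1.48 ± 0.08 SE, FDR 1.9e-13 after NCS. Wnt4, which acts in kidney, gonad and mesenchymal development, went the other way. Its counts were 291, 283 and 253 in untreated wild-type MEFs, 269.6, 251 and 330.4 in wild-type MEFs after NCS, 647, 765 and 778 in untreated 3KR MEFs and 693, 749 and 701 in 3KR MEFs after NCS. The 6 3KR samples lay above the 6 wild-type samples, and the fold changes were 1.40 ± 0.09 SE, FDR 5.73e-12 and 1.33 ± 0.09 SE, FDR 1.95e-11.

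Wnt5a was counted at 4662, 4482 and 4827 in untreated wild-type MEFs, 4547, 4594 and 4897 in wild-type MEFs after NCS, 3805, 3785 and 3799.8 in untreated 3KR MEFs and 3959.5, 4200.3 and 4065 in 3KR MEFs after NCS. Its ranges for the genotypes did not overlap with or without NCS, although the shift was small, -0.30 ± 0.04 SE, FDR 2.81e-07 untreated and -0.20 ± 0.04 SE, FDR 8.11e-05 after NCS. Wnt5b, its paralog, was counted at 203, 223 and 194 in untreated wild-type MEFs, 205, 216 and 189 in wild-type MEFs after NCS, 261, 211 and 248 in untreated 3KR MEFs and 218, 218 and 250.2 in 3KR MEFs after NCS. The ranges of the genotypes overlapped untreated and were adjacent after NCS. Its fold changes were 0.21 ± 0.11 SE, FDR 0.103 and 0.17 ± 0.11 SE, FDR 0.207, neither of them past the test. Wnt2b, a close relative of Wnt2, was counted at 159, 156 and 162 in untreated wild-type MEFs, 149.7, 145 and 130.4 in wild-type MEFs after NCS, 112, 116 and 96.4 in untreated 3KR MEFs and 110.4, 77.0 and 123 in 3KR MEFs after NCS. Each untreated wild-type sample was above each untreated 3KR sample, and the fold change was -0.57 ± 0.14 SE, FDR 0.00209. After NCS it was -0.44 ± 0.15 SE, FDR 0.0164, a call that was lost without NCS-treated 3KR replicate 2 (log2 fold change -0.28, FDR 0.119) or NCS-treated wild-type replicate 1 (-0.40, FDR 0.0557).

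Wnt6 and Wnt10a are neighbours on chromosome 1, 6.193 kb apart on the same strand (GRCm38 chr1:74771892-74785322 and chr1:74791516-74804179), and their genotype differences had opposite signs. Wnt6 was counted at 43.9, 44.6 and 30.0 in untreated wild-type MEFs, 39.0, 47.0 and 44.8 in wild-type MEFs after NCS, 21.2, 18.7 and 19.1 in untreated 3KR MEFs and 28.4, 21.0 and 19.6 in 3KR MEFs after NCS. Wnt10a was counted at 118, 153 and 138 in untreated wild-type MEFs, 138, 152 and 123 in wild-type MEFs after NCS, 261, 277 and 320.1 in untreated 3KR MEFs and 316, 296 and 335 in 3KR MEFs after NCS. The lower Wnt6 (-1.02 ± 0.26 SE, FDR 0.00265 untreated, -0.92 ± 0.26 SE, FDR 0.00519 after NCS) and the higher Wnt10a (1.07 ± 0.12 SE, FDR 4.76e-08 and 1.19 ± 0.12 SE, FDR 8.57e-09) showed no overlap between genotypes within a treatment. Wnt10b, the paralog of Wnt10a on chromosome 15 (chr15:98770712-98778150), was counted at 121, 101 and 69.3 in untreated wild-type MEFs, 95.3, 136 and 114 in wild-type MEFs after NCS, 68.5, 59.3 and 60.9 in untreated 3KR MEFs and 54.7, 57.2 and 71.3 in 3KR MEFs after NCS. Untreated, the lowest wild-type sample lay next to the highest 3KR sample. Wnt10b was lower in 3KR MEFs, with log2 fold changes of -0.65 ± 0.19 SE, FDR 0.00834 untreated and -0.92 ± 0.19 SE, FDR 0.000437 after NCS. The untreated call was lost without untreated wild-type replicate 1 (-0.45, FDR 0.0911), the highest of its group. Wnt10b lies 11.706 kb from Wnt1, which did not pass the filter.

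Wnt3 was close to the limit of detection in 3KR MEFs. Its raw counts were 10, 14 and 15 in untreated wild-type MEFs, 28, 21 and 16 in wild-type MEFs after NCS, 1 in each untreated 3KR sample and 5, 11 and 1 in 3KR MEFs after NCS. It was above the 0.266 CPM of the filter in 5 of 6 wild-type samples and 1 of 6 3KR samples. The summed counts of untreated wild-type and 3KR MEFs, 39 and 3, gave a ratio of 12.6 with a 95% counting interval of 3.99 to 63.6. Those after NCS, 65 and 17, gave a ratio of 3.51 (2.03 to 6.38). The fit called it lower in 3KR MEFs untreated (FDR 0.000576) and after NCS (FDR 0.00531), but a gene that enters the test mostly through wild-type samples is bound to differ, so these calls are no support for a difference. Without Wnt3, 13 of 30 tested genes were higher and 13 lower untreated, and 11 and 12 after NCS. Such intervals cover counting error only. The fitted log2 fold change after NCS was -2.74 without NCS-treated 3KR replicate 2 and -1.27 without NCS-treated 3KR replicate 3, and the call held in both.

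The remaining tested ligands were Wnt9a, Wnt11 and Wnt16. Wnt9a differed by genotype in both treatments and by treatment in both genotypes, while Wnt11 and Wnt16 differed in only some of these comparisons. Wnt9a, a ligand of joint and limb mesenchyme, was counted at 263, 173 and 194 in untreated wild-type MEFs, 342, 341 and 382 in wild-type MEFs after NCS, 341, 320.3 and 326 in untreated 3KR MEFs and 597, 527 and 544 in 3KR MEFs after NCS. It was higher in 3KR MEFs in both treatments (0.62 ± 0.11 SE, FDR 6.55e-05 and 0.65 ± 0.10 SE, FDR 1e-05), and the untreated value was 0.84 without wild-type replicate 1, the highest untreated wild-type sample. Wnt11, a ligand of cell movement, was counted at 519, 484 and 467 in untreated wild-type MEFs, 679, 726 and 775 in wild-type MEFs after NCS, 418, 420.2 and 446 in untreated 3KR MEFs and 742, 735 and 702 in 3KR MEFs after NCS. Its untreated difference was small (-0.20 ± 0.07 SE, FDR 0.0184). It lost its call without wild-type replicate 1 (-0.16, FDR 0.112), without 3KR replicate 1 (-0.19, FDR 0.0642) or without 3KR replicate 2 (-0.19, FDR 0.0599), and by the DESeq2 Wald test (-0.20, FDR 0.0528). After NCS the ranges of the genotypes overlapped. Wnt16, known from bone, was counted at 347, 379 and 407 in untreated wild-type MEFs, 408, 385 and 339 in wild-type MEFs after NCS, 464, 515 and 465 in untreated 3KR MEFs and 367, 411 and 361 in 3KR MEFs after NCS. It was higher in untreated 3KR MEFs (0.35 ± 0.08 SE, FDR 0.00156) with overlapping ranges after NCS.

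Of the 9 tested Frizzleds, 3 were higher (Fzd2, Fzd4 and Fzd8) and 4 lower (Fzd1, Fzd3, Fzd6 and Fzd7) in untreated 3KR MEFs. After NCS Fzd2, Fzd4 and Fzd8 were higher and Fzd1, Fzd5, Fzd6 and Fzd7 lower. In both treatments the shares are 33.3% and 44.4%. Those of all tested genes are 22.1% and 23.6% untreated and 22.9% and 23.6% after NCS. Fzd6, a receptor of tissue polarity, was counted at 1655, 1718 and 1785 in untreated wild-type MEFs, 2099, 2175 and 2198 in wild-type MEFs after NCS, 906, 803 and 790.1 in untreated 3KR MEFs and 1273, 1247 and 1313 in 3KR MEFs after NCS. Every 3KR sample lay below every wild-type sample. Its fold changes were -1.05 ± 0.05 SE, FDR 4.11e-14 untreated and -0.76 ± 0.05 SE, FDR 9.49e-12 after NCS. Fzd2 was counted at 3149, 3188 and 3320.1 in untreated wild-type MEFs, 2541, 2598 and 2578 in wild-type MEFs after NCS, 4781, 4737 and 4807 in untreated 3KR MEFs and 3494, 3352 and 3526 in 3KR MEFs after NCS. It was higher in 3KR MEFs in each treatment (0.56 ± 0.03 SE, FDR 1.32e-12 and 0.43 ± 0.03 SE, FDR 4.28e-10). Fzd8, a high-affinity receptor for Wnts of the beta-catenin branch, was counted at 725, 626 and 681 in untreated wild-type MEFs, 653, 637 and 702 in wild-type MEFs after NCS, 1153, 1165 and 1162 in untreated 3KR MEFs and 784, 800.4 and 749 in 3KR MEFs after NCS. The untreated 3KR samples were the highest of all 12, and the fold change of 0.77 ± 0.06 SE, FDR 9.02e-11 untreated stood against 0.23 ± 0.06 SE, FDR 0.0034 after NCS.

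In the other Frizzleds the fitted difference between the genotypes was less than 0.5 on the log2 scale. Fzd7, the paralog of Fzd1 and Fzd2, lay at 5809 to 6194 in untreated wild-type and 4625 to 4789 in untreated 3KR MEFs (-0.34 ± 0.03 SE, FDR 5.5e-09 untreated, -0.35 ± 0.03 SE, FDR 4.49e-09 after NCS). Fzd1 lay at 6257 to 6562 and 5399 to 5568 (-0.24 ± 0.03 SE, FDR 9.4e-07 and -0.42 ± 0.03 SE, FDR 9.39e-11). Fzd4, the receptor for norrin, was higher untreated at 445 to 529 against 378 to 400.1 (0.33 ± 0.08 SE, FDR 0.00157). Its call after NCS (0.22 ± 0.09 SE, FDR 0.0433) was lost without NCS-treated 3KR replicate 2 (0.15, FDR 0.206) or 3 (0.23, FDR 0.0713) or NCS-treated wild-type replicate 1 (0.18, FDR 0.135) or 2 (0.21, FDR 0.0894), by the DESeq2 Wald test (FDR 0.0864) and without a filter (FDR 0.0519). Fzd3 was lower untreated (-0.25 ± 0.08 SE, FDR 0.0187), a call lost without wild-type replicate 3 (-0.18, FDR 0.0981), wild-type replicate 1 (-0.23, FDR 0.0562) or 3KR replicate 1 (-0.19, FDR 0.105). Fzd5 was lower after NCS (-0.22 ± 0.08 SE, FDR 0.0188), which was lost without NCS-treated wild-type replicate 3 (-0.17, FDR 0.0896) or 3KR replicate 1 (-0.20, FDR 0.0837). Fzd9, at 1.79 to 2.29 TPM in untreated wild-type MEFs, passed the test in none of the 5 comparisons. With only genes of at least 10 counts in every sample its response to NCS in wild-type MEFs was called (-0.63, FDR 0.0452). Both LRP co-receptors were higher in 3KR MEFs. Lrp5 lay at 2963 to 3147 against 2369.8 to 2583 (0.30 ± 0.04 SE, FDR 7.26e-07 untreated, 0.34 ± 0.04 SE, FDR 1.1e-07 after NCS). Lrp6 lay at 5955 to 5981 against 4462 to 5036 (0.35 ± 0.04 SE, FDR 8.22e-08 and 0.26 ± 0.04 SE, FDR 1.07e-05).

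Of the 7 tested secreted inhibitors, 4 were higher (Sfrp1, Sfrp2, Dkk2 and Dkk3) and 3 lower (Sfrp4, Wif1 and Frzb) in untreated 3KR MEFs, and 3 were higher and 2 lower after NCS. The untreated shares are 57.1% and 42.9%, against 22.1% and 23.6% of all tested genes. Those after NCS are 42.9% and 28.6%, against 22.9% and 23.6%. Sfrp2 was counted at 191, 184 and 197 in untreated wild-type MEFs, 216, 176 and 184 in wild-type MEFs after NCS, 1615, 1508 and 1598 in untreated 3KR MEFs and 1319.5, 1162 and 1297 in 3KR MEFs after NCS. The lowest 3KR sample was far above the highest wild-type sample, and the fold change was 3.04 ± 0.07 SE, FDR 4.83e-20 untreated and 2.72 ± 0.07 SE, FDR 7.05e-19 after NCS. Sfrp1 was counted at 3335, 3271 and 3302 in untreated wild-type MEFs, 3568, 3571 and 3492 in wild-type MEFs after NCS, 7375, 7130.2 and 7066 in untreated 3KR MEFs and 6292, 6169.8 and 6393 in 3KR MEFs after NCS. Again the genotypes did not overlap (1.12 ± 0.03 SE, FDR 1.11e-18 and 0.83 ± 0.03 SE, FDR 4.13e-16). Dkk2, an antagonist of the LRP co-receptors, was counted at 810.2, 919 and 917 in untreated wild-type MEFs, 896, 909 and 835 in wild-type MEFs after NCS, 1498, 1532 and 1507 in untreated 3KR MEFs and 1533, 1496 and 1521 in 3KR MEFs after NCS. Its level was higher in 3KR MEFs (0.77 ± 0.05 SE, FDR 1.46e-11 untreated, 0.79 ± 0.05 SE, FDR 1.57e-11 after NCS). These are the 3 inhibitors that were higher with and without NCS.

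Sfrp4 and Wif1 were lower in 3KR MEFs. Sfrp4, a secreted frizzled-related protein known from bone, was counted at 1063, 1124 and 1059 in untreated wild-type MEFs, 1011, 1037 and 996 in wild-type MEFs after NCS, 364, 368 and 361 in untreated 3KR MEFs and 316, 272 and 303 in 3KR MEFs after NCS. All 3KR samples lay below all wild-type samples, with fold changes of -1.58 ± 0.06 SE, FDR 3.04e-16 untreated and -1.77 ± 0.06 SE, FDR 1.07e-16 after NCS. Wif1, which binds Wnt ligands directly, was counted at 96.9, 95.4 and 82.8 in untreated wild-type MEFs, 114, 101 and 80.6 in wild-type MEFs after NCS, 20.2, 26.0 and 11.8 in untreated 3KR MEFs and 17.2, 3.50 and 17.6 in 3KR MEFs after NCS. All 6 3KR samples lay below all 6 wild-type samples, and the fold changes were -2.27 ± 0.28 SE, FDR 4.17e-07 and -2.90 ± 0.30 SE, FDR 3.39e-08. Frzb was lower untreated (214 to 235 in wild-type, 171 to 193 in 3KR, -0.33 ± 0.10 SE, FDR 0.00805), and Dkk3 was higher (0.13 ± 0.04 SE, FDR 0.00305). Neither passed the test after NCS. Axin2, whose exons overlap the opposite-strand gene Gm11670 over 209 bases, did not pass the test untreated, at 138 to 154 in wild-type and 122 to 164 in 3KR MEFs. After NCS it was lower in 3KR MEFs (-0.36 ± 0.13 SE, FDR 0.0308). That call was lost without NCS-treated wild-type replicate 1 (-0.26, FDR 0.152) or 3 (-0.33, FDR 0.0741) or NCS-treated 3KR replicate 1 (-0.30, FDR 0.122) or 2 (-0.38, FDR 0.0514). It was lost as well by the DESeq2 Wald test (-0.36, FDR 0.0643) and without wild-type replicate 3 in both treatments (-0.33, FDR 0.0507).

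**Figure D3:**
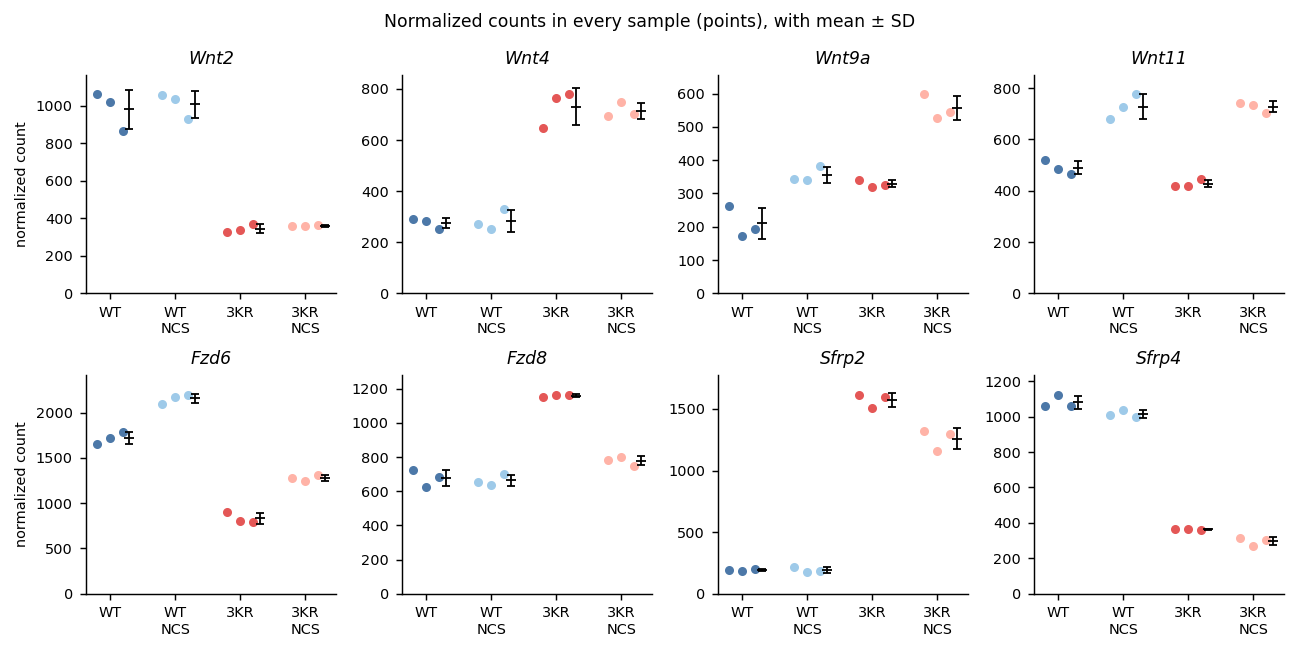
Normalized counts (counts divided by the size factor of the sample, linear axes from 0) of 8 genes in each of the 12 samples (points), with the mean ± SD of the 3 samples of each group beside them. Wnt2, Fzd6 and Sfrp4 are lower and Wnt4 and Sfrp2 higher in every 3KR sample, while Wnt9a, Wnt11 and Fzd6 are higher after NCS in each genotype.

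The RefSeq promoter table used here holds windows for 28 of the 41 genes, 31 windows in all, each of 300 bases (250 before and 50 after the annotated start, GRCm38.p6). The stretches printed here belong to the genes with the largest increase (Sfrp2) and decrease (Wif1) among the inhibitors, to a ligand that NCS raised in both genotypes (Wnt11), and to the ligand with the largest decrease above the detection limit (Wnt2). They are written 5′ to 3′ on the strand of the gene, with capitals marking letters of the 3 motifs searched on both strands: TTTNNCGC (a relaxed form of the E2F site), CTTTGNN with A or T at both N (the TCF/LEF core), and the p53 half-site. Sfrp2 is at chr3:83766071-83766320 (+), Wif1 at chr10:121033754-121033959 (+) and Wnt11 at chr7:98834862-98835111 (+), each up to the base before the first annotated start, and Wnt2 is a stretch of 30 bases at chr6:18030468-18030497 (-). The Wnt2 stretch lies before the RefSeq start, but inside the gene as annotated by GENCODE, which starts at chr6:18030585.
Sfrp2: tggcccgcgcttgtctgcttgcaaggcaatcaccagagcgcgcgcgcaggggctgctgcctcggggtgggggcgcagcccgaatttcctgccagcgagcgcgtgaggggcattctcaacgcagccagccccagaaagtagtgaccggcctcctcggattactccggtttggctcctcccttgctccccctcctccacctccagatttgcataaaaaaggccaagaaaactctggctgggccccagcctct
Wif1: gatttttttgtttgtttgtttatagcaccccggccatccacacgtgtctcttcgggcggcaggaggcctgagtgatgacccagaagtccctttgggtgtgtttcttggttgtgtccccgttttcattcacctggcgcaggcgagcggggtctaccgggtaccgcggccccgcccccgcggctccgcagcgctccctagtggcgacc
Wnt11: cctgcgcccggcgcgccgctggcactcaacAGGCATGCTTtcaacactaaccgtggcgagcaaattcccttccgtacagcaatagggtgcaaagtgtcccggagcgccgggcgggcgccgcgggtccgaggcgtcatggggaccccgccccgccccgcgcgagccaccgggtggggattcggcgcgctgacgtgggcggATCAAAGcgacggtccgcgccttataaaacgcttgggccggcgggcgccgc
Wnt2: ccgggctgcccTTTATCGCtcgctgggctc

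In the Sfrp2 and Wif1 windows none of the motifs was found. The Wnt11 stretch held 1 p53 half-site and 1 TCF/LEF match on the reverse strand, which do not overlap. The Wnt2 stretch held 1 TTTNNCGC match, with A and T at the free letters where the classical E2F site has C or G. TTTNNCGC was found in windows of 3 of the 28 genes (Wnt2, Sfrp5 and a second start of Wnt11), 9.68% of the 31 windows against 5.17% of all 32851 windows. A TCF/LEF core was in windows of 5 genes, 16.1% against 16.9%, and the p53 half-site in Wnt11 alone, 3.23% against 8.36%. A match describes letters and not a bound site, and no binding was measured in these cells.

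Summed by role on the TPM scale, the ligands came to 159.6 to 169.9 TPM in untreated wild-type and 142 to 149 TPM in untreated 3KR MEFs, and the Frizzleds to overlapping ranges of 447 to 475 and 442 to 449 TPM. The summed inhibitors were higher in 3KR MEFs, 553 to 557 against 365 to 376 TPM untreated and 482 to 498 against 366 to 379 TPM after NCS. Inhibitor transcripts per ligand transcript were 2.21 to 2.35 in untreated wild-type, 2.12 to 2.24 in wild-type after NCS, 3.71 to 3.93 in untreated 3KR and 3.10 to 3.24 in 3KR MEFs after NCS. The ratio was higher in all 6 3KR samples than in all 6 wild-type samples, and no test was made on it.

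The composition of each role differed as well. Wnt2 made up 27.3% of the ligand level in untreated wild-type and 11.0% in untreated 3KR MEFs, and Wnt4 4.12% and 12.5%. Fzd2 made up 19.8% and 30.6% of the Frizzled level. Sfrp2 made up 2.45% and 13.8% of the inhibitor level, while the share of Dkk3 was 59.8% and 44.7%. These shares are of transcripts per length, so a member can lose share without losing level, as Dkk3 did.

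**Figure D4:**
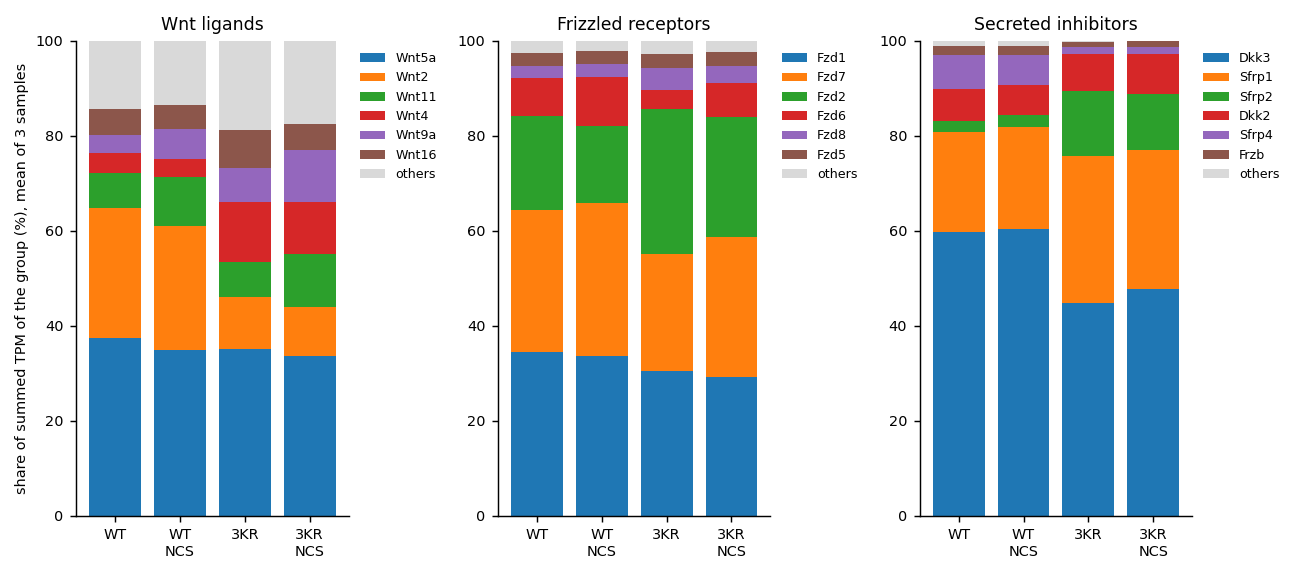
Share of the summed TPM (%, mean of 3 samples) held by the 6 most abundant genes of the ligands, the Frizzled receptors and the secreted inhibitors in each group, with the other genes of the role in grey. The wider bands of Wnt4, Fzd2 and Sfrp2 and the narrower bands of Wnt2 and Sfrp4 set the 3KR bars apart from the wild-type bars.

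The next comparisons asked how the genes responded to 3 h of NCS. In wild-type MEFs 4 of the 31 tested genes rose (Wnt9a, Wnt11, Fzd6 and Sfrp1) and 2 fell (Fzd2 and Fzd4). These are 12.9% and 6.45% of them against 14.3% and 12.4% of all tested genes. The shares are no higher than those of all genes in this fit, which is not blocked by replicate number. In 3KR MEFs 5 rose (Wnt3, Wnt5a, Wnt9a, Wnt11 and Fzd6) and 10 fell (Wnt16, Fzd1, Fzd2, Fzd4, Fzd5, Fzd8, Lrp6, Sfrp1, Sfrp2 and Sfrp4), 16.1% and 32.3% against 15.8% and 15.0%. Without wild-type replicate 3 in both treatments 7 rose and 2 fell in wild-type MEFs. When the fit was blocked by replicate number within each genotype, 11 of the 31 genes were called in wild-type MEFs, 6 higher and 5 lower, including all 6 of the fit without it. The 5 added were Fzd7 (log2 fold change 0.08, FDR 0.0189), Dkk3 (0.07, FDR 0.0448), Fzd1 (-0.07, FDR 0.0257), Lrp6 (-0.07, FDR 0.0365) and Fzd3 (-0.21, FDR 0.0465). The shares of all genes called with the block or without wild-type replicate 3 are not given here. The counts of these fits are therefore not set against a background.

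Wnt9a and Wnt11 were the ligands that rose in both genotypes, and each treated sample was above each untreated sample of its genotype in the counts given before. Wnt9a had log2 fold changes of 0.74 ± 0.11 SE, FDR 2.08e-05, in wild-type and 0.76 ± 0.10 SE, FDR 2.95e-06, in 3KR MEFs. The wild-type value was 0.95 without untreated replicate 1. Those of Wnt11 were 0.56 ± 0.06 SE, FDR 4.69e-07, and 0.76 ± 0.07 SE, FDR 4.3e-09. For neither gene did the difference between the responses pass the test (0.02 ± 0.15 SE, FDR 0.961 and 0.20 ± 0.09 SE, FDR 0.278, by the test of the difference). Exons of Wnt11 overlap those of the opposite-strand gene Gm8398 over 364 bases, and the strand setting of the counting is not given in the sources used here.

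Wnt3 rose after NCS in 3KR MEFs, from 3 summed counts to 17, a ratio of 6.15 with a 95% counting interval of 1.78 to 32.8 (FDR 0.0383). Most of the 17 came from replicate 2, without which the fitted log2 fold change was 1.53 (FDR 0.304). The call was lost as well without NCS-treated replicate 1 (2.61, FDR 0.0596) or without any untreated 3KR replicate (2.44 to 2.53, FDR 0.0867 to 0.102). With at least 10 counts in every sample, which leaves out Wnt3 and Wif1, 4 of 29 genes rose and 10 fell in 3KR MEFs. In wild-type MEFs Wnt3 did not pass the test (0.76 ± 0.43 SE, FDR 0.21). The rise of Wnt5a in 3KR MEFs was small (0.10 ± 0.04 SE, FDR 0.0348) and was lost without any 1 untreated 3KR replicate or without NCS-treated 3KR replicate 2 or 3 (0.08 to 0.11, FDR 0.08 to 0.16), and without a filter (FDR 0.0661). Wnt16 fell in 3KR MEFs (-0.34 ± 0.08 SE, FDR 0.00334), and its wild-type ranges before and after NCS overlapped.

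Among the receptors, Fzd6 rose in both genotypes (0.32 ± 0.05 SE, FDR 1.63e-05 in wild-type, 0.62 ± 0.05 SE, FDR 4.15e-09 in 3KR). Fzd2 and Fzd4 fell in both (Fzd2 -0.33 ± 0.03 SE, FDR 1.44e-07 and -0.46 ± 0.03 SE, FDR 2.17e-10, Fzd4 -0.38 ± 0.08 SE, FDR 0.00145 and -0.49 ± 0.08 SE, FDR 5.92e-05). In 3KR MEFs Fzd8 fell to 749 to 800.4 from 1153 to 1165 (-0.58 ± 0.06 SE, FDR 4.17e-08). Fzd1 fell to 4525 to 4604 from 5399 to 5568 (-0.26 ± 0.03 SE, FDR 9.39e-07), and Lrp6 to 5272 to 5344 from 5955 to 5981 (-0.17 ± 0.04 SE, FDR 0.00197). Fzd5 had a log2 fold change of -0.24 ± 0.08 SE, FDR 0.0214 in 3KR MEFs, which was lost without untreated replicate 2 (-0.20, FDR 0.0938), or NCS-treated replicate 1 (-0.21, FDR 0.095) or 2 (-0.23, FDR 0.0578). The summed Frizzled level was 425 to 439 TPM in wild-type and 366 to 374 TPM in 3KR MEFs after NCS, the latter below all 9 other samples. Of the inhibitors, Sfrp1 (-0.19 ± 0.03 SE, FDR 3.9e-05), Sfrp2 (-0.32 ± 0.06 SE, FDR 0.000174) and Sfrp4 (-0.29 ± 0.07 SE, FDR 0.00318) fell in 3KR MEFs. In wild-type MEFs Sfrp1 rose (0.10 ± 0.03 SE, FDR 0.0278), a call lost without untreated replicate 1 or 2 or NCS-treated replicate 1 or 2 (0.09 to 0.11, FDR 0.0507 to 0.0922), with only the 6 wild-type samples fitted (0.08, FDR 0.133) and without a filter (0.10, FDR 0.0777). Axin2 passed the test in neither genotype.

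**Figure D5:**
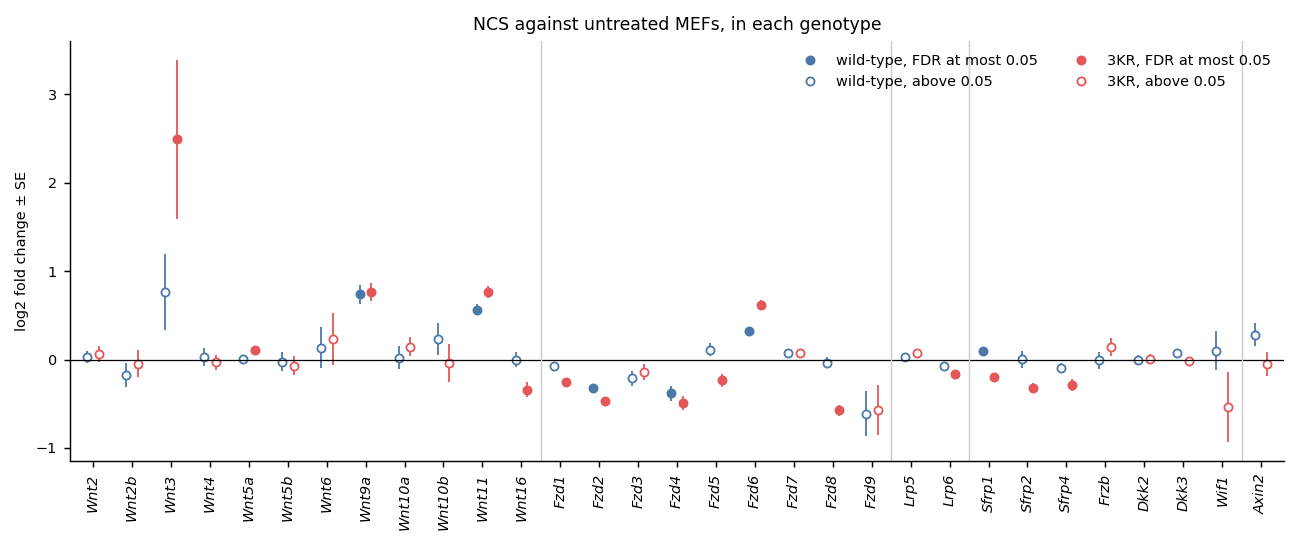
Log2 fold change after NCS for the 31 tested genes (points, ± SE from the edgeR fit) in wild-type (blue) and 3KR MEFs (red), with filled points for an FDR of at most 0.05 and open points above it, and vertical lines between roles. Wnt9a, Wnt11 and Fzd6 lie above 0 and Fzd2 and Fzd4 below 0 in both genotypes, and the red point of Fzd8 lies at -0.58.

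Whether the genotypes differed in their response was tested in the same fit. The test passed for 4 of the 31 genes, 1 higher and 3 lower, against 1.86% and 1.87% of all tested genes. Fzd6 rose more in 3KR MEFs (difference 0.30 ± 0.07 SE, FDR 0.0198). Fzd8 (-0.54 ± 0.08 SE, FDR 0.000324) and Fzd1 (-0.18 ± 0.04 SE, FDR 0.018) fell more in 3KR MEFs, and Sfrp1 had a rise in wild-type and a fall in 3KR MEFs (difference -0.29 ± 0.04 SE, FDR 0.000324). The genotype difference was thus smaller after NCS than before in Fzd6, Fzd8 and Sfrp1 and larger in Fzd1. The count was 2 without wild-type NCS-treated replicate 1, without untreated 3KR replicate 3 or without NCS-treated 3KR replicate 1, 8 without untreated wild-type replicate 3, and 10 (1 higher and 9 lower) without wild-type replicate 3 in both treatments. Shares of all genes called in these fits are not given here. The call of Fzd6 was lost without NCS-treated wild-type replicate 1, untreated 3KR replicate 2 or 3, or NCS-treated 3KR replicate 1 or 3 (0.26 to 0.30, FDR 0.0525 to 0.0848). That of Fzd1 was lost without untreated wild-type replicate 1, NCS-treated wild-type replicate 1 or 2, untreated 3KR replicate 3, or NCS-treated 3KR replicate 1 or 2 (-0.19 to -0.17, FDR 0.0506 to 0.0704). Fzd8 and Sfrp1 were called with each sample left out.

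The rest of the pathway was read from lists of its other genes, chosen with earlier results of these data known. Of 15 tested co-receptors and regulators of receptor turnover, 7 were higher and 5 lower in untreated 3KR MEFs, with a median log2 fold change of 0.02. These are 46.7% and 33.3%, against 22.1% and 23.6% of all tested genes, the background of the following lists too. Lgr5, a receptor for the R-spondins that keep Frizzleds at the cell surface, was higher at 2920.4 to 2962 against 294 to 327 normalized counts (3.21 ± 0.06 SE, FDR 1.1e-21). Rnf43, the ubiquitin ligase that removes Frizzleds, was higher (1.84 ± 0.24 SE, FDR 1.05e-06). Of 12 tested other secreted modulators 7 were higher and 3 lower (58.3% and 25.0%, median 0.36). The higher ones include Igfbp4 (0.72 ± 0.03 SE, FDR 3.94e-16), the Frizzled ligand norrin, Ndp (1.93 ± 0.46 SE, FDR 0.00139), and Rspo1 (1.44 ± 0.41 SE, FDR 0.00565). The counts of Ndp and Rspo1 are not given here, and their SEs are large. If they entered the test mostly through 3KR samples, their calls are no support for a difference. Gpc3 (-0.72 ± 0.04 SE, FDR 6.03e-14) and the Wnt deacylase Notum (-0.87 ± 0.21 SE, FDR 0.00136) were lower. Of the genes that prepare ligands for secretion, the acyltransferase Porcn was higher (0.43 ± 0.13 SE, FDR 0.00711) and the carrier Wls lower (-0.39 ± 0.03 SE, FDR 6.49e-10).

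Inside the cell, 3 of 22 tested cytoplasmic components were higher and 10 lower in untreated 3KR MEFs (13.6% and 45.5%, median -0.08), led by Nkd2 (-1.10 ± 0.05 SE, FDR 2.89e-15) and Apc2 (-1.39 ± 0.14 SE, FDR 1.94e-08). Of 15 nuclear components 2 were higher and 5 lower (13.3% and 33.3%, median -0.09), including the transcription factor Tcf7 (-0.76 ± 0.10 SE, FDR 5.26e-07) and the corepressor Tle1 (-0.76 ± 0.05 SE, FDR 1.94e-12). Nkd2 is also in the list of beta-catenin targets.

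The 10 genes that did not pass the filter were Wnt1, Wnt3a, Wnt7a, Wnt7b, Wnt8a, Wnt8b, Wnt9b, Fzd10, Sfrp5 and Dkk1. Their highest raw counts in any sample were 15 for Wnt1, 13 for Wnt7b, 12 for Dkk1, 11 for Wnt7a, 7 for Fzd10, 4 for Wnt3a and Wnt8a, 3 for Sfrp5 and 1 for Wnt8b and Wnt9b. They are in none of the counts of 31 genes. In fits that admit some or all of them, Wnt1 and Fzd10 were called lower in untreated 3KR MEFs without a filter (FDR 0.0166 and 0.035), Fzd10 also by the DESeq2 Wald test (FDR 0.0399), and Wnt1 also without untreated wild-type replicate 2 (FDR 0.0028) or untreated 3KR replicate 3 (FDR 0.0413). Their raw counts were 15, 0 and 10 against 1, 0 and 2 for Wnt1 and 4, 4 and 7 against 0, 1 and 0 for Fzd10, in untreated wild-type and 3KR MEFs. A count of 0 allows up to 3 counts, the 0.0663 to 0.0904 CPM given before.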

How the data were processed

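RNA sequencing of 12 samples, 3 in each of 4 groups, was analysed. The authors deposited raw read counts per Ensembl gene, 1 table a sample, made from stranded libraries. The submitters' processing notes name TopHat, HTSeq, DESeq and the build mm9, and their versions and the strand setting of the counting are not given in the sources used here. If the counting ignored strand, reads of overlapping genes on opposite strands are in both counts.

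Groups came from the sample titles. Counts were filtered with filterByExpr (0.266 CPM, the equivalent of 10 counts at the median depth, in at least 3 samples), scaled with TMM factors and fitted with edgeR 4.0.16 (R 4.3.3) by the quasi-likelihood F test in a model of 4 group means over all 12 samples, so that the spread is shared (common biological coefficient of variation 3.95%). Each of the 5 comparisons was adjusted by Benjamini-Hochberg over 15327 genes, at an FDR of 0.05. An error written as SE is the standard error of the log2 fold change. Normalized counts are counts divided by DESeq2 1.42.0 size factors. With TMM scaling instead, the values of the 31 genes shifted by 0.242 to 0.654%, and with library totals by -1.91 to 2.52%. TPM used the summed exon length of GENCODE M21 (GRCm38), which held 32938 of the 37991 identifiers and no less than 99.4% of any sample's counts. Printed coordinates are those of GRCm38, not of the mm9 counts. The scripts were tested on simulated counts, and tables and figures were made with pandas 2.3.3, scipy 1.17.1 and matplotlib 3.10.9.

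The replicate numbers are shared between groups. Same-numbered wild-type samples deviated together over 11758 genes (correlations 0.141, 0.136 and 0.325), each over the 0.1 set for pairing. Replicates 1 and 2 did so across numbers too (0.127 and 0.133), so that replicate 3 alone is told apart from them by this check. The wild-type numbers were taken as paired on that rule, while same-numbered 3KR samples did not (-0.01, 0.01 and -0.09). Alternatives were size factors, the DESeq2 Wald test, no filter, a minimum of 10 counts in all samples, a fit of the 6 samples of a comparison alone, the replicate block, each sample left out, and wild-type replicate 3 left out in both treatments. The counting interval of Wnt3 was added after its counts were seen. The members and lists were chosen with earlier results of these data known. Values in every sample are given for the tested ligands and for genes with an FDR of at most 0.05 and a log2 fold change of at least 0.5 in size in any comparison, and from other pathway lists the 3 genes with the lowest p untreated, or those past 1 on the log2 scale, could be named.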

Additional observations from a re-analysis of the deposited data

Results flagged for a closer look

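Fzd6, Fzd8, Fzd1 and Sfrp1 responded to NCS differently in the genotypes by the edgeR test of the difference itself. The difference of the log2 responses, 3KR minus wild-type, was 0.30 for Fzd6 (FDR 0.0198), which rose in all 6 treated samples above the untreated samples of the same genotype. It was -0.54 for Fzd8 (FDR 0.000324), which fell in 3 of 3 treated 3KR samples below every untreated 3KR sample, while its wild-type ranges overlapped. It was -0.29 for Sfrp1 (FDR 0.000324), with the treated samples above the untreated samples in wild-type and below them in 3KR MEFs. It was -0.18 for Fzd1 (FDR 0.018). The calls of Fzd6 and Fzd1 were lost without each of 5 and 6 single samples, and those of Fzd8 and Sfrp1 were kept.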

How the results depend on the processing

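Of 76 calls over the 31 genes and 5 comparisons, 63 were kept under every alternative that tested the gene, 13 were lost under at least 1, and none changed direction. Wnt3 and Wif1 (5 of the calls) were not tested under all alternatives, since the filter of some fits left them out. The number of genes called in 3KR against wild-type MEFs was 25 to 29 untreated (27 of 31 as reported) and 22 to 24 after NCS (24 of 31) under the alternatives that keep all replicates. The 25 are of 29 genes with at least 10 counts in every sample, and the 29 are of all 41 genes without a filter. The counts were 24 to 28 and 21 to 23 with 1 sample left out. In the responses to NCS it was 5 to 8 in wild-type (6) and 12 to 14 in 3KR MEFs (15) with 1 sample left out, and 2 to 8 for the difference of the responses (4). With the replicate block 11 genes were called in wild-type MEFs, 7 for the difference of the responses and 16 in 3KR MEFs, where the numbers do not pair the samples, and the genotype counts stayed at 27 and 24. Without wild-type replicate 3 in both treatments the count was 10 for the difference of the responses. With at least 10 counts in every sample 9 were called in the wild-type response. For these changes the cause was not tested, and the shares of all genes called under the alternatives are not given here. Of values that passed no test, the wild-type response of Wnt6 (0.13) was -0.023 to 0.22 with 1 sample left out, lowest without untreated wild-type replicate 3, and -0.042 without that replicate in both treatments, and the difference of the responses was -0.085 to 0.26 for Wnt6 (lowest without NCS-treated 3KR replicate 1) and -0.018 to 0.29 for Wnt2b (lowest without NCS-treated 3KR replicate 3). Depth limits the genes under about 10 counts, Wnt3 in 3KR MEFs among them.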

Other observations

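Of 22 tested common targets of beta-catenin, 9 were higher and 9 lower in untreated 3KR MEFs, with a median log2 fold change of 0.03 (edgeR, as before). These are 40.9% in each direction, against 22.1% and 23.6% of all tested genes. The list shares Axin2 and Dkk1 with the genes described here, and Lgr5, Rnf43, Notum, Tcf7, Nkd2 and Apcdd1, among others, with other lists. It is therefore not separate from them. Ccn5, a matricellular protein, was higher (1.91 ± 0.03 SE, FDR 1.16e-22), as was the growth factor Fgf9 (3.22 ± 0.33 SE, FDR 1.83e-08). The counts of Fgf9 are not given here, and what was said of Ndp and Rspo1 holds for its call too. Fgf18 was lower (-1.28 ± 0.16 SE, FDR 5.92e-07), and it rose after NCS in wild-type (0.52, FDR 0.00558) and 3KR MEFs (0.55, FDR 0.0196). Apcdd1, a membrane inhibitor of Wnt signalling that is also in the list of secreted modulators, was higher in 3KR MEFs untreated (0.76 ± 0.05 SE, FDR 1.25e-11) and after NCS (1.02 ± 0.05 SE, FDR 7.66e-14).

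Of 12 tested components of planar cell polarity, 4 were higher and 3 lower in untreated 3KR MEFs (33.3% and 25.0%, against 22.1% and 23.6% of all tested genes). Celsr2, an atypical cadherin, was lower (-0.97 ± 0.17 SE, FDR 4.36e-05), as was Ankrd6 (-0.89 ± 0.13 SE, FDR 6.12e-06), and Prickle1 was higher (0.33 ± 0.05 SE, FDR 1.28e-05). After NCS 4 of the 12 fell in each genotype (33.3%, against 12.4% of all tested genes in wild-type and 15.0% in 3KR MEFs) and 0 rose by the same test.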
